A study of Mus musculus with 6 samples.

Results

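The receptors described here are 10 mouse genes that a T cell uses to tune its response to antigen. They are Cd28, Icos, Ctla4, Pdcd1 and Btla, which form the CD28 family or resemble it, and the inhibitory receptor genes Lag3, Havcr2, Cd160, Cd96 and Cd5. They were chosen by name as every non-control probe whose gene name in the array files equals one of these symbols. This gave 10 of the 27376 named genes on the array and 13 of its 41174 probes. Icos, Cd28 and Havcr2 had more than 1 probe, and every other receptor had a single probe.

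RNA came from T cells of C57BL/6J background mice, 6 weeks old, cultured for 4 days to become induced regulatory T (iTreg) cells. The 3 cKO mice were miR-31 fl/fl CD4Cre, in which Cre driven by Cd4 elements removes the microRNA miR-31 from the T lineage. The 3 age-matched controls are called only control in the labels and miR-31 fl/fl in the study's methods. Each array held the cells of 1 mouse. Cre was present in the cKO mice only, so the loss of miR-31 and the presence of Cre cannot be told apart. Both groups carried the Foxp3gfp reporter by which the starting cells were sorted. These were naive CD4+CD25-Foxp3gfp-CD62Lhi cells of the spleen, or of spleen and lymph nodes in the study's methods. Per the labels, both groups then received anti-CD3 on the plate (5 µg/ml), anti-CD28 in solution (2 µg/ml), IL-2 (40 ng/ml) and TGF-β1 (5 ng/ml). The study's methods give a lower dose of IL-2 for such cultures. The antibody against CD28, the product of one of the genes described, was thus in every culture. No source used here describes a sort after the culture, so the RNA is that of all cells harvested.

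CD28 gives a T cell the second signal that it needs besides its antigen receptor when it meets CD80 or CD86 on an antigen-presenting cell. CTLA-4 binds the same ligands more tightly, is abundant in regulatory T cells and removes the ligands from the presenting cell. PD-1, encoded by Pdcd1, recruits the phosphatase SHP-2, and LAG-3, TIM-3 (Havcr2), BTLA, CD160, CD96 and CD5 restrain activation through their own ligands and adaptors. Some of these receptors, though not all, are also acquired on activation, so that their RNA can mark stimulated cells as well as regulatory ones.

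The deleted microRNA is shown as its mature strands, from RefSeq on GRCm38.p6, with the seed (bases 2 to 8) in capitals. Both are encoded on the minus strand of chromosome 4.
mmu-miR-31-5p: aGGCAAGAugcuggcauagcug
mmu-miR-31-3p: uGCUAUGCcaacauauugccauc
The array held no probe named for miR-31, so the deletion itself was not checked here.

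Each receptor was read by 60-base probes, whose sequence decides which transcripts are counted. The first 30 bases, as the array files give them, are shown for the probes with an unadjusted p under 0.05 and for the brighter Icos probe, which is the comparison within the Cd28, Ctla4 and Icos locus. No base is in capitals because no position was singled out.
Ctla4: acagagccagaatgtgaaaagcaatttcag
Cd28, probe 1: ctacatggtaagatggaccagaaattgcaa
Icos, probe 1: taactgccagtgtttgttttcatctcctgt
Pdcd1: aaggaaagggggatataaccttgacgcaaa
Lag3: ggagaaaacagttgctactgagaagatttt
Cd160: gcaattgtgaacttccaacatggtggatgt
The share of G and C over the whole probe was 40.0% for Ctla4, 41.7% for these Cd28, Icos and Lag3 probes and 45.0% for Pdcd1 and Cd160. Whether a probe lies in a coding exon or an untranslated region was not analysed here.

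All values are log2 of the background-subtracted signal relative to the 75th percentile of the same array, so 0 is a signal equal to that percentile. Brightness differs between probes for technical reasons, so no difference in RNA level between genes is read from it. The brightest probe of a list is named, and list signals summed, only to describe what each array measured. A probe was tested where 3 or more of the 6 arrays showed signal well above background. This held for 12 of the 13 receptor probes, and 11 were well above background on all arrays. Across the array, 22281 probes were tested.

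Lag3, Ctla4, Pdcd1 and Cd28 RNA lay higher in cKO than in control iTreg cells, and Cd160 RNA lay lower, each without overlap between the groups, but none of these differences passed the test after adjustment over all probes. By limma, 5 of the 12 tested receptor probes had an unadjusted p under 0.05, 4 of them higher and 1 lower in cKO. Over all tested probes the share was 23.0%, made up of 11.5% higher and 11.4% lower. After Benjamini-Hochberg adjustment 0 receptor probes passed 0.05 by limma, and the lowest adjusted p was 0.13. Of all tested probes, 54 passed, or 0.242%, with 33 higher and 21 lower in cKO. Among the tested receptor probes the groups did not overlap for 4 higher in cKO and 1 lower, against 15.9% and 20.7% of all tested probes. At the brightest probe of each receptor, 6 were higher and 4 lower in cKO. Their median log2 fold change was 0.26, against −0.04 for all tested probes. The number of arrays limits every value, and the smallest 2-sided p of an exact permutation test of 3 arrays against 3 is 0.10. In bulk RNA, fewer cells of a type and less RNA per cell cannot be told apart.

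**Figure D1:**
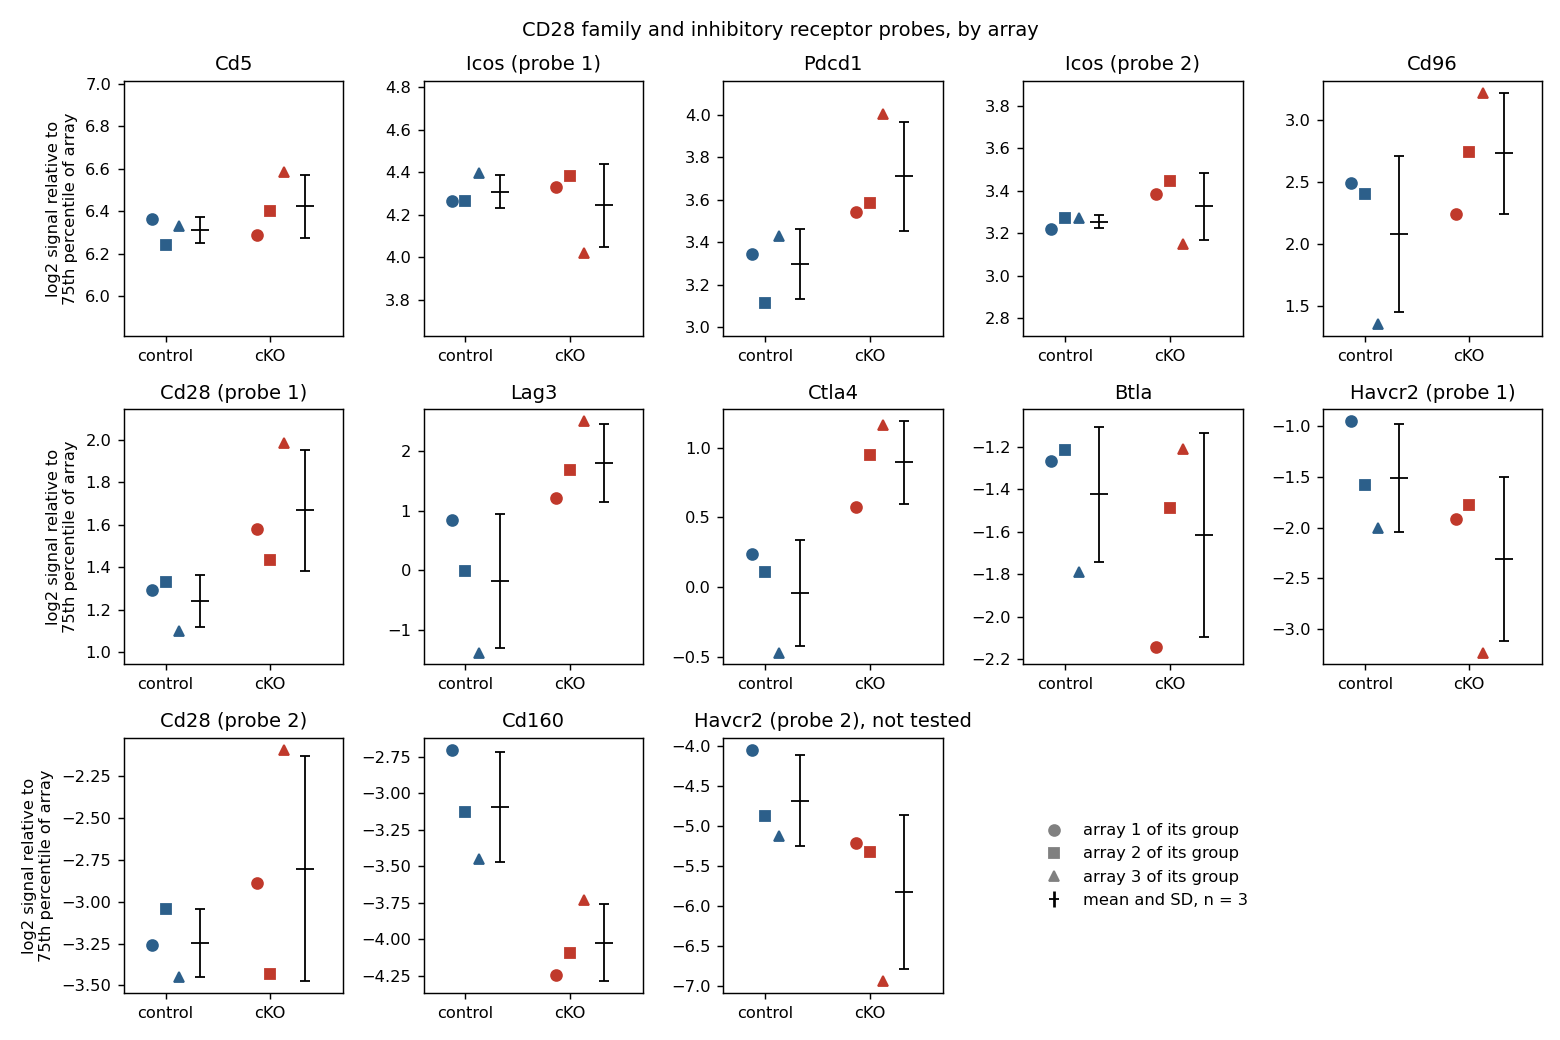
Signal of each receptor probe on each array, as log2 relative to the 75th percentile of the array, with the brightest probe first and a vertical scale for each panel. Points are arrays (circle, square and triangle for arrays 1, 2 and 3 of a group) and bars the mean and SD of 3 arrays; the cKO points of Lag3, Ctla4, Pdcd1 and Cd28 probe 1 lie above all control points, and those of Cd160 below.

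Among the costimulatory receptors, Cd28 (NM_007642) was read by a probe on chr1:60829679-60829738 of mm9, plus strand. Its values were 1.58, 1.44 and 1.99 on cKO arrays 1, 2 and 3 and 1.29, 1.33 and 1.10 on control arrays 1, 2 and 3. Every cKO array stood above every control array, and the gap between the nearest arrays was 0.11. The log2 fold change was 0.43 (standard error 0.17, 95% interval 0.02 to 0.84, adjusted p = 0.21 from limma), which is 1.34-fold. This probe is printed 10 times on each array, so the error of reading it can be seen. The SD between its spots had a median of 0.06 over the arrays, while the SD between array means was 0.29 in cKO and 0.12 in control. On cKO array 2 the spots ran from 1.04 to 1.60, the widest range of the 6 arrays. On cKO array 3, the highest, the lowest spot was 1.88, above the highest control spot of 1.41.

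**Figure D2:**
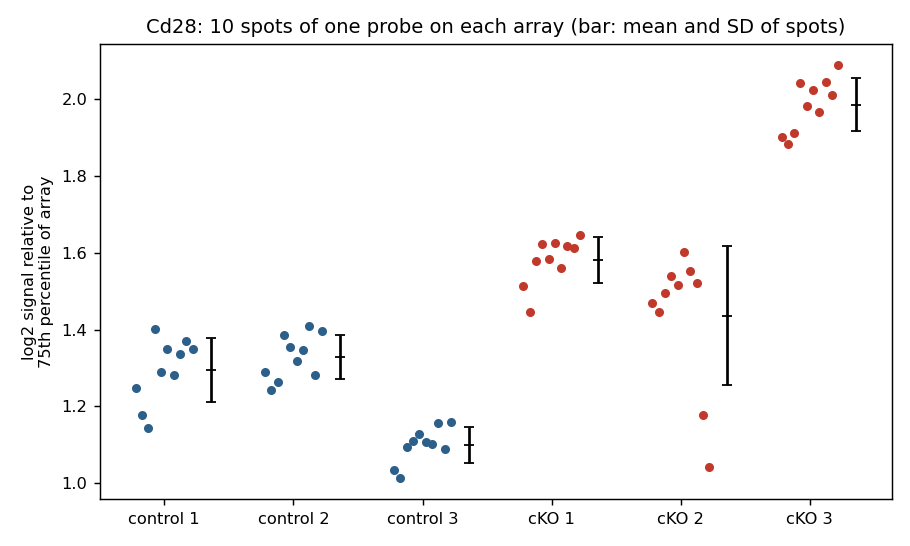
The 10 spots of the brighter Cd28 probe on each array, as log2 signal relative to the 75th percentile of the array, with the mean and SD of the spots beside them. The spots of cKO array 3 (1.88 to 2.09) lie above all control spots, and those of control array 3 (1.01 to 1.16) have the lowest mean of the control arrays, 1.10.

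The other Cd28 probe, annotated to ENSMUST00000153207, lies 8.81 kb upstream at chr1:60820867-60820926 and was dim. It gave −2.89, −3.43 and −2.09 in cKO and −3.26, −3.04 and −3.45 in control cells. The groups overlapped, with a log2 fold change of 0.45 (95% interval −0.37 to 1.27, adjusted p = 0.43 from limma).

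Icos encodes the inducible costimulator, which binds ICOS ligand and supports helper and regulatory T cells. It was bright and nearly level. The probe on chr1:61057071-61057130 (NM_017480) gave 4.33, 4.38 and 4.02 in cKO and 4.27, 4.26 and 4.40 in control cells. Array 3 of the cKO group had the lowest value and the groups overlapped. This gave a log2 fold change of −0.06, with a 95% interval of −0.39 to 0.26 (adjusted p = 0.78 from limma). The second Icos probe, 1.97 kb away at chr1:61055103-61055162, gave 3.38, 3.45 and 3.15 in cKO and 3.22, 3.27 and 3.27 in control cells. Its log2 fold change was 0.07, with an interval of −0.21 to 0.35. The estimates of the Icos probes had opposite signs, and each interval held 0.

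Ctla4, the inhibitory counterpart of Cd28, was read on chr1:60971508-60971567 (NM_009843). It gave 0.57, 0.95 and 1.16 on cKO arrays 1, 2 and 3, and 0.24, 0.11 and −0.47 on the control arrays. The cKO arrays were all higher, with a gap of 0.33 between the nearest. The log2 fold change of 0.94 (standard error 0.24, 95% interval 0.35 to 1.52) is 1.91-fold, with an adjusted p of 0.14 from limma. Of all tested probes, 3.94% had a log2 fold change at least as high. Cd28, Ctla4 and Icos lie side by side on chromosome 1, with the Ctla4 probe 141.8 kb from that of Cd28 and 85.6 kb from that of Icos. Taken within each array, the log2 value of Ctla4 minus that of Icos was higher in cKO by 1.00 and that of Ctla4 minus Cd28 by 0.51. The groups did not overlap in either (exact permutation p = 0.10 for each, 2-sided, the smallest possible). Ctla4 minus Icos was −3.76, −3.43 and −2.86 on cKO arrays 1, 2 and 3 and −4.03, −4.16 and −4.87 on the control arrays. Ctla4 minus Cd28 was −1.01, −0.49 and −0.83 in cKO and −1.06, −1.22 and −1.57 in control cells. Control array 1, on the slide of the cKO arrays, was the nearest control array in both, and its −1.06 nearly met −1.01. The value of Cd28 minus Icos was higher by 0.49, with an exact permutation p of 0.20. It was −2.75, −2.95 and −2.03 on cKO arrays 1, 2 and 3 and −2.97, −2.93 and −3.30 on control arrays 1, 2 and 3. The groups overlapped, and cKO array 3 stood apart from the other cKO arrays. Over the 5 such differences computed, which include 2 for Lag3, the Benjamini-Hochberg adjusted values of this exact test were 0.125 for 4 of them and 0.20 for Cd28 minus Icos. These differences reuse the same array values, in which Ctla4 and Lag3 lay apart between the groups and Icos was nearly level. They therefore add no separate support. None of the 5 was recomputed without an array or within a slide.

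Pdcd1 (NM_008798, chr1:95935064-95935123, minus strand) gave 3.54, 3.58 and 4.01 in cKO and 3.35, 3.11 and 3.43 in control cells. The groups did not overlap, and the nearest arrays were 0.11 apart. Its log2 fold change was 0.41 (standard error 0.17, 95% interval 0.01 to 0.82, adjusted p = 0.21 from limma), or 1.33-fold. Btla encodes a receptor for HVEM, the product of Tnfrsf14. Its probe (NM_001037719, chr16:45252118-45252177) gave −2.14, −1.49 and −1.21 in cKO and −1.27, −1.22 and −1.79 in control cells. The groups overlapped widely, with a log2 fold change of −0.19 (95% interval −0.87 to 0.49, adjusted p = 0.69 from limma).

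In the reported fit, Lag3 had the widest difference of the receptors and also the widest spread. LAG-3 is a CD4-like receptor for MHC class II that inhibits effector cells and contributes to suppression by regulatory T cells. Its probe (NM_008479, chr6:124854570-124854866, minus strand) covers 297 bases of the genome, more than its own 60. It gave 1.22, 1.69 and 2.51 on cKO arrays 1, 2 and 3, and 0.85, −0.01 and −1.38 on control arrays 1, 2 and 3. The cKO arrays were all higher, but the control arrays alone spread over more than the gap of 0.37 between the groups. The log2 fold change was 1.99 (standard error 0.61, 95% interval 0.51 to 3.47, adjusted p = 0.16 from limma), a 3.98-fold difference with an interval of 1.42 to 11.1. Of all tested probes, 0.574% had a log2 fold change at least as high.

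Lag3 is the neighbour of Cd4, which was 0.66 higher in cKO on the log2 scale (adjusted p = 0.17 from limma). The log2 value of Lag3 minus that of Cd4 within each array was higher in cKO by 1.33, and that of Lag3 minus Icos by 2.06 (exact permutation p = 0.10 for each, 2-sided). Lag3 minus Cd4 ran from 1.68 to 2.14 in cKO and was 1.53, 0.63 and −0.63 on control arrays 1, 2 and 3. Lag3 minus Icos ran from −3.11 to −1.51 in cKO and was −3.42, −4.28 and −5.78 on these control arrays. Control array 1, on the slide of the cKO arrays, was thus the nearest to them in both, and control array 3 the farthest. Neither difference was recomputed without an array or within a slide.

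Havcr2 encodes TIM-3, an inhibitory receptor of effector and some regulatory T cells. Its brighter probe (NM_134250, chr11:46294650-46294709) gave −1.91, −1.78 and −3.23 in cKO and −0.96, −1.58 and −2.003 in control cells. The groups overlapped, and cKO array 3 was the lowest. Between the groups the log2 fold change was −0.79 (95% interval −1.90 to 0.31, adjusted p = 0.32 from limma). The other probe, 24.73 kb away at chr11:46269921-46269980, was not well above background on any array and was not tested. It gave −5.22, −5.33 and −6.95 in cKO and −4.05, −4.89 and −5.13 in control cells, all lower in cKO but at background in both groups.

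Cd160, a receptor for HVEM on natural killer (NK) cells and on subsets of T cells, had the single tested receptor probe that lay lower in cKO without overlap. Its dim probe (NM_018767, chromosome 3, chr3:96609753-96612738 on the minus strand) gave −4.24, −4.10 and −3.73 in cKO and −2.70, −3.12 and −3.45 in control cells. All control arrays were higher, and the signal was not well above background on cKO array 2. The log2 fold change was −0.93 (standard error 0.23, 95% interval −1.49 to −0.37, adjusted p = 0.13 from limma), so that control cells had 1.91-fold more. With normexp background correction and 75th-percentile scaling this dim probe changed sign, to 0.24, a setting that moved the median of all probes to 0.11.

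Cd96 encodes a receptor for CD155 that is shared by T and NK cells. Its probe (NM_032465, chr16:46038560-46038619, minus strand) gave 2.24, 2.74 and 3.21 in cKO and 2.49, 2.40 and 1.36 in control cells. Control array 3 stood apart and the groups overlapped, with a log2 fold change of 0.65 (95% interval −0.27 to 1.57, adjusted p = 0.33 from limma). Cd5, a scavenger-type receptor that lowers signalling by the antigen receptor, was bright, and its groups overlapped. Its probe (NM_007650, chr19:10792701-10792760, minus strand) gave 6.29, 6.40 and 6.58 in cKO and 6.36, 6.24 and 6.33 in control cells. The difference was 0.11 on the log2 scale, with a 95% interval of −0.17 to 0.39 (adjusted p = 0.56 from limma).

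**Figure D3:**
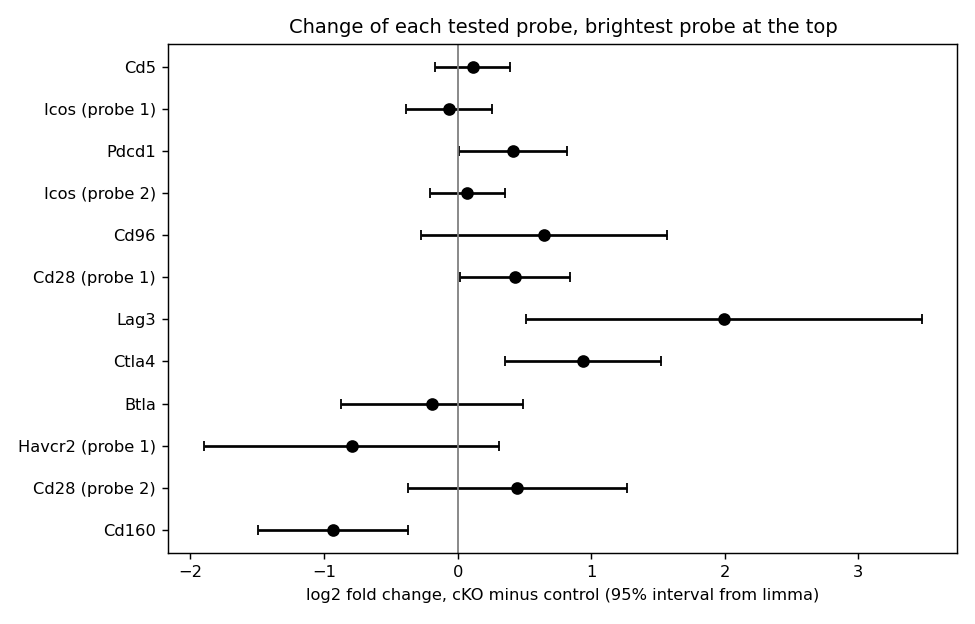
Log2 fold change of each tested receptor probe, cKO minus control, with the 95% interval from limma on 3 arrays per group. The intervals of Lag3, Ctla4, Pdcd1 and Cd28 probe 1 lie above 0 and that of Cd160 below, before any adjustment for the number of probes.

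Single arrays carried part of these differences. Array 3 of the cKO group was the highest of all 6 arrays for 8 of the 12 tested receptor probes and the lowest for 3, against 28.1% and 35.2% of all tested probes. Array 3 of the control group was the lowest for 5 receptor probes, against 17.8% of all. Without cKO array 3, the log2 fold change of Lag3 was 1.64, that of Ctla4 0.80, that of Pdcd1 0.27 and that of Cd28 0.27, and 2 of the 5 receptor probes had an unadjusted p under 0.05. Without control array 3, Lag3 was at 1.39, Ctla4 at 0.72 and Cd96 at 0.29. The sign of these 5 receptors held in every fit with an array left out. Havcr2 was at −0.33 without cKO array 3 and at −0.52 without control array 1. The dim Cd28 probe was at 0.09 without cKO array 3 and at 0.76 without cKO array 2.

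The arrays lay on 2 slides, the cKO arrays with control array 1 on one and control arrays 2 and 3 on the other. Slide and genotype are therefore partly confounded. Within the first slide only control array 1 could be compared, and its spread was assumed to be that of the cKO arrays. The log2 fold change there was 0.96 for Lag3 (adjusted p = 0.89 from limma), 0.66 for Ctla4, 0.36 for Pdcd1, 0.37 for Cd28 and −1.32 for Cd160 (adjusted p = 0.56). It was −1.35 for Havcr2 (adjusted p = 0.89 from limma), 0.24 for Cd96 and −0.35 for Btla. Fitted with slide as a term, the estimates were the same, and the adjusted p was 0.73 for Lag3 and 0.38 for Cd160. Among controls, arrays 2 and 3 averaged 1.55 lower than array 1 for Lag3, 0.42 lower for Ctla4 and 0.59 lower for Cd160. The difference of Lag3 between control arrays on different slides was thus wider than that between genotypes on 1 slide, while for Cd160 the control arrays of the second slide were nearer to the cKO arrays than control array 1 was.

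**Figure D4:**
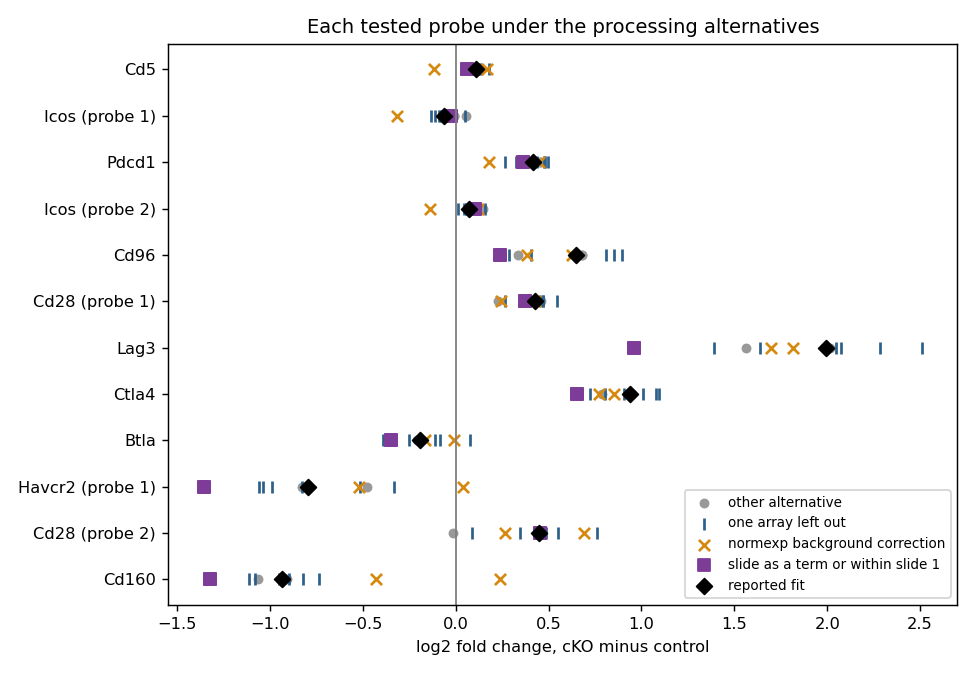
Log2 fold change of each tested receptor probe, cKO minus control, in the reported fit (diamond) and under the processing alternatives. Lag3 and Ctla4 stay above 0 in all of them but move to 0.96 and 0.66 within slide 1 (purple squares); Cd160 crosses 0 with normexp and 75th-percentile scaling.

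The ligands and binding partners of the receptors were followed as a list of 12 genes, all of them tested at their brightest probe. Of these, 8 (66.7%, against 23.0% of all tested probes) had an unadjusted p under 0.05 by limma, 4 higher and 4 lower in cKO, and 0 passed the adjusted threshold. Their median log2 fold change was −0.25. Ceacam1, an adhesion molecule and partner of TIM-3, had the widest difference, with −0.46, −0.08 and 0.68 in cKO and −2.15, −2.64 and −2.99 in control cells. Its cKO values were all far above those of the controls, and the log2 fold change of 2.64 had a standard error of 0.34 (adjusted p = 0.066 from limma). Only 1 of the 3 Ceacam1 probes was tested. Against control array 1 alone, on the slide of the cKO arrays, the difference was 2.20. Icosl, the ligand of ICOS, gave −3.004, −2.96 and −3.81 in cKO and −1.77, −1.93 and −1.69 in control cells. It lay lower on every cKO array, by 1.46 on the log2 scale with a standard error of 0.25 (adjusted p = 0.080 from limma). Only 1 of the 2 Icosl probes was tested, and against control array 1 alone the difference was −1.49.

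Cd80, the shared ligand of CD28 and CTLA-4, gave −0.49, 0.48 and 0.23 in cKO and −0.92, −0.99 and −1.40 in control cells. The groups did not overlap, with a log2 fold change of 1.18 at the brighter probe (adjusted p = 0.12 from limma) and 0.89 at the other. Lgals3 encodes galectin-3, a ligand of LAG-3 and, with Hmgb1, one of the brightest of the list. Its log2 fold change was 0.81 (adjusted p = 0.15 from limma), while that of Hmgb1, a partner of TIM-3, was −0.62 (adjusted p = 0.21). The remaining ligands were named for their role after their values were seen. For Cd86, Cd274, Pdcd1lg2, Tnfrsf14 and Pvr the log2 fold change was 0.47, −0.38, −0.55, −0.37 and 0.87. Fgl1, which encodes another ligand of LAG-3, was at −0.29 (adjusted p = 0.21 from limma), opposite in sign to Lgals3, and Lgals9, a ligand of TIM-3, at −0.21 (adjusted p = 0.29), both lower on every cKO array. The groups were also apart for Pdcd1lg2, a ligand of PD-1, and for Pvr, which encodes CD155, the ligand of CD96. All 6 probes of Pvr gave values between 0.71 and 0.87. Tnfrsf14, which encodes HVEM, overlapped widely.

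Of 16 further co-receptors and accessory receptors of T cells, 15 were matched on the array, all but Tigit, and 14 were tested. By limma, 2 were higher and 3 lower at an unadjusted p under 0.05, or 35.7% against 23.0% of all tested probes, and 0 passed adjustment; the median log2 fold change was −0.10. Cd200, whose product inhibits cells that carry its receptor, gave 2.94, 3.096 and 2.78 in cKO and 2.34, 2.22 and 2.29 in control cells. Its groups were apart by a log2 fold change of 0.66 (adjusted p = 0.091 from limma). Vsir, which encodes the inhibitory molecule VISTA, had a log2 fold change of 0.51 (adjusted p = 0.15). Cd226, which encodes the activating receptor that competes with CD96 for CD155, was at −1.12 (adjusted p = 0.17), and its 3 other probes gave −1.25 to −1.14. Crtam, an adhesion receptor of activated T and NK cells, was at −1.39 (adjusted p = 0.19). The brightest of the list, Cd6, a relative of Cd5, and Cd2, an adhesion receptor, were at 0.01 and 0.06.

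Of 21 signalling and trafficking genes, all were tested, and 3 had an unadjusted p under 0.05 by limma, 2 higher and 1 lower. This share of 14.3% is below the 23.0% of all tested probes. None passed adjustment, and the median log2 fold change was 0.03. Cblb, an E3 ubiquitin ligase that restrains T cells lacking CD28 signals, gave −0.41, −0.24 and 0.68 in cKO and −0.79, −0.91 and −1.40 in control cells. The groups did not overlap, and the log2 fold change of 1.05 had a standard error of 0.32 (adjusted p = 0.16 from limma). Grap2, which encodes the adaptor GADS that binds CD28, was at −0.49 (adjusted p = 0.16). Ptpn6, which encodes the phosphatase SHP-1, was at 0.30 (adjusted p = 0.21), and Dgkz, a diacylglycerol kinase, at 0.29 (adjusted p = 0.22). The brightest of the list, the kinase gene Lck and the diacylglycerol kinase gene Dgka, were at −0.09 and 0.47.

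**Figure D5:**
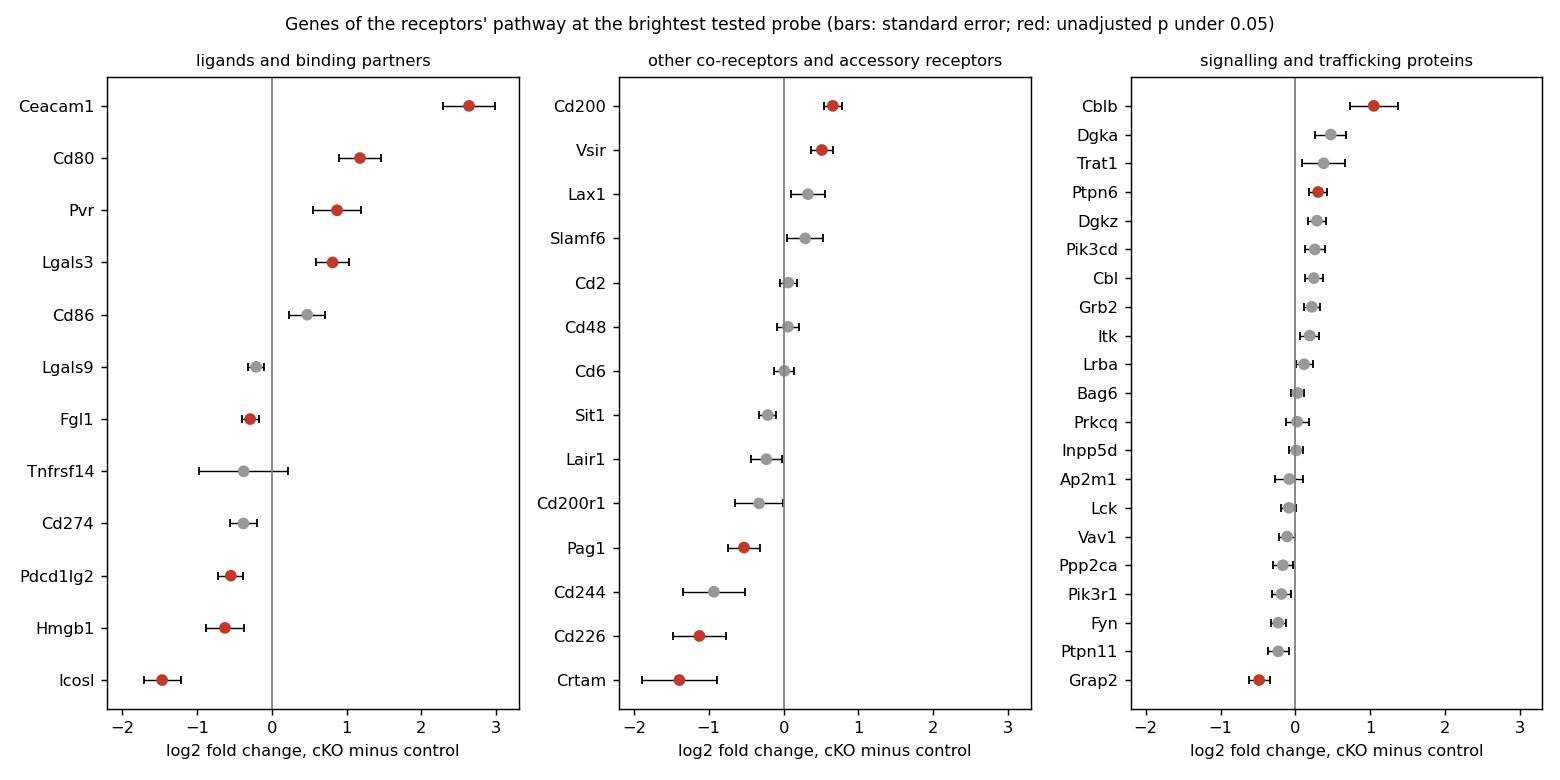
Log2 fold change, cKO minus control, with its standard error from limma, of the ligands, further co-receptors and signalling genes at their brightest tested probe. Ceacam1 (2.64) and Icosl (−1.46) lie farthest from 0 on either side among the ligands, and most signalling genes lie near 0; red marks an unadjusted p under 0.05.

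Markers of the labelled cell type were well above background. Foxp3, the defining factor of regulatory T cells, gave 3.16, 3.12 and 2.45 in cKO and 3.42, 3.42 and 3.76 in control cells. Its cKO arrays were all lower, by 0.62 on the log2 scale (adjusted p = 0.19 from limma). All 5 regulatory T cell markers were tested, with 2 higher and 3 lower in cKO. By limma 2 of them, or 40% against 23.0% of all tested probes, had an unadjusted p under 0.05, both lower: Foxp3 and Nrp1, the latter at −0.77. Ikzf2 was at 0.51, with its other probes at 0.64 to 1.22, Ikzf4 at 0.06 and Il2ra at −0.56. Their summed signal, in multiples of the 75th percentile, was 47.3, 34.3 and 23.4 in cKO and 44.5, 45.6 and 53.8 in control cells, and Il2ra, the IL-2 receptor alpha chain gene, was the brightest. The array with the highest Lag3, Ctla4, Pdcd1 and Cd28 values, cKO array 3, had the lowest Foxp3 and the lowest sum.

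All 5 general T cell markers were tested, with 3 higher and 1 lower at an unadjusted p under 0.05, or 80% against 23.0% of all tested probes. Cd3g was at 0.74, Cd4 at 0.66, Cd3d, the brightest, at 0.38 and Cd3e at −0.28. The other Cd3e probe was at 0.78, so that its probes disagreed in sign. Their sum was 141, 162 and 192 in cKO and 133, 135 and 121 in control cells, so that it too was highest on cKO array 3 and lowest on control array 3. The part of these shifts in the receptor values was not tested.

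Of 4 NK cell markers, Klrb1c was not well above background on any array, Ncr1 was so on 2 cKO arrays and Klra8 on 1 control array. The remaining one, Klrk1, the brightest, had a log2 fold change of 1.71 (adjusted p = 0.20 from limma) with overlapping groups. It was the single NK cell marker tested and had an unadjusted p under 0.05, as did 23.0% of all tested probes. Of the dim markers that were not tested, Ncr1 lay higher and Klra8 lower on every cKO array, and Klrb1c overlapped. The sum of the NK cell markers was 1.15, 0.408 and 1.13 in cKO and 0.453, 0.306 and 0.219 in control cells. The CD8 T cell markers, Cd8a and the brighter Cd8b1, were both tested, with neither at an unadjusted p under 0.05. Their sum was 4.06, 3.87 and 4.34 in cKO and 5.34, 4.42 and 5.61 in control cells. Of 4 B cell markers only Cd79b was tested and the sum was 0.538, 0.670 and 1.26 in cKO and 0.585, 0.617 and 0.372 in control cells. Of 5 myeloid markers only Csf1r was tested, Itgax was not well above background on any array, and the sum was between 0.110 and 0.307 on all arrays. The part of these other cells in the receptor values was not tested.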

How the data were processed

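The authors labelled the RNA of each culture with Cy3, hybridized it to a one-colour Agilent whole mouse genome array and extracted spots with Agilent Feature Extraction (version 9.1 in the submitters' processing notes, 10.7.3.1 in the file headers). The deposited spot intensities are linear, background-subtracted and not normalized between arrays. A deposited table of log2 values, made by the authors, has a median of 6.15 in every column; its normalization is not given in the sources used here.

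Each array held 45018 spots, 43379 of them not controls. Spots marked as outliers (123 to 140 per array) were dropped, spots of a probe averaged and log2 values taken relative to the 75th percentile of the non-control spots (a signal of 987 to 1148). The share of spots with signal well above background was 54.2%, 50.7% and 57.7% in cKO and 49.3%, 57.1% and 54.6% in control cells, and 0 spots were saturated. The 22281 probes kept, 19 of them missing a value on an array, entered lmFit and eBayes of limma 3.58.1 in R 4.3.3 and adjusted by Benjamini-Hochberg. The fit was tested on simulated data. Tables and plots used Python 3.11.15, pandas 2.3.3, numpy 2.4.6 and matplotlib 3.10.9.

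The genes named are every receptor probe and, from each list, those with an adjusted p under 0.05 or otherwise up to 4 with the lowest unadjusted p, and the brightest 2. Members of the marker lists are named as well, and the remaining ligands were named for their role after their values were seen. The receptors and lists were chosen with earlier results of these data known. Each mouse was 1 sample. A shared replicate number was not used to pair the samples in the reported fit. The deviations of same-numbered arrays correlated at −0.14, 0.01 and −0.19, so no shared deviation was seen. With 3 arrays per group this cannot exclude a pairing. Positions are the array files' own on mm9. Alternatives were normexp correction (offset 50), other scalings, the authors' table, other filters, the methods' t-test, trend and robust fitting, array weights, slide and replicate terms and each array left out. They were read for the receptor probes and for counts over all probes, and not for the genes of the lists. The comparison within slide 1 was added after seeing the data, and its single control array was assumed to vary like the cKO arrays.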

Additional observations from a re-analysis of the deposited data

How the results depend on the processing

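Against 54 probes with an adjusted p under 0.05 in the reported limma fit, the count was 115 with normexp and quantile normalization, 28 with quantile normalization and 28 in the authors' table (each with 12 higher and 16 lower, against 33 and 21), 174 when all 6 arrays had to show signal well above background, 105 with trend and robust fitting and 710 with array weights. It was 0 with normexp and 75th-percentile scaling (1662 with an unadjusted p under 0.05), without the filter on dim probes (4705), by the methods' t-test (4018), with slide as a term (1646) and within slide 1 (1310). It was 0 with the replicate block (3627), where 5 receptor probes again had an unadjusted p under 0.05, with Havcr2 in place of Cd28 probe 1, and 0 to 1 with an array left out (2865 to 6465). That count of 5 receptor probes fell to 2 with normexp and 75th-percentile scaling, 3 without the filter, 2 by the methods' t-test, 1 with slide as a term and 1 within slide 1, and was 2 to 5 with an array left out (2 without cKO array 3, and 3 without any 1 of the control arrays). No receptor probe had an adjusted p under 0.05 in any alternative, and the lowest was 0.057, for Cd160. The median over the receptors, 0.26, moved to 0.16 without cKO array 3 and to 0.16 with array weights. It was 0.15 with slide as a term or within slide 1. For probes with signal on all arrays, a setting that left out Cd160, it was 0.41. Each move was less than 0.22, the SD of this median between the cKO arrays, each set against the control mean. The spread of the control arrays is not part of that SD.

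The sign changed for some probes. With normexp and 75th-percentile scaling, Cd5 was at −0.12, Icos probe 2 at −0.14, Havcr2 at 0.038 and Cd160 at 0.24. Without a change of sign, Pdcd1 moved from 0.41 to 0.18 and Cd28 probe 1 from 0.43 to 0.24 under that setting. Under it too, Icos probe 1 moved from −0.06 to −0.31, Cd96 from 0.65 to 0.39, Cd28 probe 2 from 0.45 to 0.69 and Btla from −0.19 to −0.008. Cd28 probe 1 moved to 0.23 with array weights, and Cd160 from −0.93 to −0.43 with normexp and quantile normalization. With array weights, Icos probe 1 was at 0.058 and Cd28 probe 2 at −0.016. With an array left out, Icos probe 1 ran from −0.13 to 0.048 and Btla from −0.39 to 0.075. Cd5 then ran from 0.033 to 0.18 and Icos probe 2 from 0.012 to 0.16, both without a change of sign. The cause was not tested. Cd160 was not well above background on cKO array 2. Leaving out an array left a group with 2.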
